A study of Mus musculus with 12 samples.

Results

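The 35 antioxidant genes described here belong to the NRF2 response, glutathione metabolism, the thioredoxin and peroxiredoxin systems, the pentose phosphate pathway and NADPH supply. They were measured in EMT6 cells, a mouse breast cancer line, by RNA sequencing. They were taken by symbol from a table of 60683 gene rows, where they filled 36 rows because SOD2 has a second one. Of the 35 genes, 34 were tested and 1, SOD2 (mitochondrial superoxide dismutase), was not measured, with its highest value at 0.0721 TPM (transcripts-per-million). The members fall into 8 roles. They include regulators, glutathione synthesis and cystine uptake, glutathione transferases and peroxidases, and the thioredoxin system. The others are haem, iron and quinone enzymes, superoxide and peroxide removal, the pentose phosphate pathway with NADPH supply, and other NRF2 targets.

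Cells carried a short hairpin RNA against ISG20 (shISG20, labelled as ISG20 knockdown) or a control hairpin (shNTC, labelled as wild type), and spent 48 hours in 1% or 20% O2. The 4 groups were shISG20 at 1% O2, shNTC at 1% O2, shISG20 at 20% O2 and shNTC at 20% O2, with 3 libraries each. Replicate 3 of shISG20 at 20% O2 is labelled with 484 hours in place of 48 and was retained, and counts without it are given as well. The labels speak of subclones without saying how many stand behind each hairpin, so effects of the hairpin and of subcloning cannot be told apart. The labels call the libraries biological replicates without naming separate cultures, and the p-values therefore cover only the spread among these libraries, part of which may be technical.

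NRF2 (gene NFE2L2) is a transcription factor that KEAP1 holds in the cytoplasm and hands to degradation until oxidants or electrophiles modify KEAP1. Freed NRF2 pairs with a small MAF protein such as MAFG at antioxidant response elements and raises genes that make glutathione, reduce thioredoxin, break down haem and store iron. Glutathione, thioredoxin and the peroxiredoxins draw their electrons from NADPH, which the pentose phosphate pathway and malic enzyme supply. NRF2 targets are often raised in tumours.

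Some of these genes carry the letters of an antioxidant response element near their start, and as examples the promoter windows of 4 members that were lower in shISG20 cells at 1% O2 are given. They are the mouse windows from 250 bases before to 50 bases after the start site (RefSeq, GRCm38.p6, plus strand): Gclm at chr3:122245307-122245606, Srxn1 at chr2:152105274-152105573, Txnrd1 at chr10:82858956-82859255 and Prdx1 at chr4:116685349-116685648. Capitals mark the match to the core of the antioxidant response element, TGACNNNGC, which in these 4 windows lies on the minus strand and is therefore read as its reverse complement.
Gclm: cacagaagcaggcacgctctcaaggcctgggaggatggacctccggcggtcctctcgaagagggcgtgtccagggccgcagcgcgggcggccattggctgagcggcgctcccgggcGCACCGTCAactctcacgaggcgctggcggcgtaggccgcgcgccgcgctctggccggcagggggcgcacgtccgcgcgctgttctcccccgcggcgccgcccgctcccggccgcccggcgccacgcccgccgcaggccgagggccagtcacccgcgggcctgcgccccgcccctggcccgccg
Srxn1: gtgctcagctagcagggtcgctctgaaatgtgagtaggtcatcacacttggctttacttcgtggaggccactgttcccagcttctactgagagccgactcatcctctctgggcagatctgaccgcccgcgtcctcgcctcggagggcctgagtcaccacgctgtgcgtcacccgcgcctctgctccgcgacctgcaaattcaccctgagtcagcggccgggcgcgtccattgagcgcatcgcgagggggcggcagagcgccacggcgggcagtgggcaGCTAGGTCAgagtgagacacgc
Txnrd1: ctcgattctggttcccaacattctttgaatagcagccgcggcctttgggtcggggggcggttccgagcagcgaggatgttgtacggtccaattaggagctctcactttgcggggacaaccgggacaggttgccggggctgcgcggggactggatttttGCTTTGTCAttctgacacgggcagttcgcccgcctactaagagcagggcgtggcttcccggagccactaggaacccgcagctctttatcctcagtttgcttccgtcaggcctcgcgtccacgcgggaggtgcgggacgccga
Prdx1: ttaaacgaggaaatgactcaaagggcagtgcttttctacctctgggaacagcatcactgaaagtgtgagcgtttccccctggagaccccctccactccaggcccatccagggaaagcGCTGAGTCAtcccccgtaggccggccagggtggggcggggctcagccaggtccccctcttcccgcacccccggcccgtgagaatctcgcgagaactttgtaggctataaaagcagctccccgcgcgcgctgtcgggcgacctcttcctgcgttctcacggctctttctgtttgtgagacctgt

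Relative to the start site the match began at position -134 in Gclm, 28 in Srxn1, -92 in Txnrd1 and -133 in Prdx1. Txnrd1 has 3 windows, of which the 1 with the match is shown. Searched on both strands, TGACNNNGC stood in the windows of 9 of the 29 members that have one (31.0%), and in 14.0% of all 27025 genes with a window. Among the 9 members with a window that were lower in shISG20 cells at 1% O2, 4 held it, and among the 18 that were not called, 5 did. The core of the hypoxia response element, ACGTG, stood in the windows of 7 of the 29 members (24.1%) and in 21.8% of all genes. The motifs can overlap, since a TGACNNNGC match can contain ACGTG. A match to letters is a description of the window and not a measured binding site.

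The reads were counted on human gene rows (build GRCh38), although the cells are mouse. Mouse reads counted only if they resembled the human sequence enough to be aligned, so levels are compared between groups and not between genes. A value of 0 may mean that reads did not align. The reads recovered from the TPM numbered 3173991 to 5201799 per library, and the members took 0.936 to 1.31% of its TPM. Recovered reads are known only up to a common divisor of each row, so the true numbers may be higher. As a check of the labels, ISG20, an interferon-induced exonuclease, stood at 0.413, 0.595 and 0.69 TPM in shISG20 cells and 8.81, 8.44 and 7.59 TPM in shNTC cells at 1% O2. At 20% O2 it stood at 0.215, 0.135 and 0.323 TPM in shISG20 cells and 2.03, 2.65 and 2.7 TPM in shNTC cells, so it was lower in every shISG20 library. Of the epithelial and carcinoma markers, 5 of 8 reached 1 TPM while CDH1 (E-cadherin) was at 0 in every library. Of the leucocyte markers, 7 of 8 were at 0 in every library, PTPRC (CD45) among them, and so were the endothelial markers PECAM1, CDH5 and KDR.

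At 1% O2, GCLM and GCLC of glutathione synthesis, the cystine carrier SLC7A11, the thioredoxin reductase TXNRD1 and the haem oxygenase HMOX1 were among the members that fell in shISG20 cells. Of the 34 tested members, 11 fell and 2 rose at a limma adjusted p under 0.05. Among all 14389 tested rows, 9.66% were called lower and 4.25% higher, 13.9% in all. The median log2 difference was -0.16 over the members and -0.07 over all rows. With median-of-ratios size factors in place of the TPM scale, 10 members fell and 4 rose, and the calls over all rows were split 1029 higher to 1083 lower, against 611 to 1390 on the TPM scale. Of the 4 mesenchymal markers, VIM rose (8046.3 TPM in shISG20 and 6851.3 TPM in shNTC cells), SNAI2 (11.3 and 8.13 TPM in shISG20 and shNTC cells) and ZEB1 (0.344 and 0.39 TPM) were not called and CDH2 was at 0. Their sum, nearly all VIM, was 7985.2 to 8115.0 TPM in shISG20 cells and 6815.5 to 6904.5 TPM in shNTC cells, and its part in these differences was not tested.

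Of the 6 genes of glutathione synthesis, recycling and cystine uptake, 4 fell and none rose. GCLM, the modifier subunit of glutamate-cysteine ligase, the rate-limiting enzyme of glutathione synthesis, stood at 37.3, 37.7 and 38.9 TPM in shISG20 cells and 92.8, 104.6 and 98.0 TPM in shNTC cells at 1% O2. The libraries lay far apart, and GCLM fell by 1.35 on the log2(TPM + 1) scale (SE 0.07, limma adjusted p = 3.6e-06). SLC7A11, the cystine carrier that brings in the substrate, stood at 2.27, 2.53 and 2.93 TPM in shISG20 cells and 5.6, 6.62 and 5.71 TPM in shNTC cells. It fell by 0.97 (SE 0.14, limma adjusted p = 0.00189), without overlap of the libraries.

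GGT7, a member of the gamma-glutamyltransferase family, had 3.8, 5.76 and 3.34 TPM in shISG20 cells and 10.9, 14.6 and 12.3 TPM in shNTC cells at 1% O2, a mean ratio of 0.34 (log2 difference -1.38, SE 0.24, limma adjusted p = 0.00463). GCLC, the catalytic partner of GCLM, was at 6.96 ± 0.739 TPM in shISG20 cells and 9.82 ± 0.767 TPM in shNTC cells (SD, n = 3 each), a log2 difference of -0.45 (limma adjusted p = 0.0278). This call for GCLC was lost in 7 of 15 alternatives, among them without shISG20 replicate 1 (-0.45) or 3 (-0.38) and without shNTC replicate 2 (-0.39) or 3 (-0.47). GSR, which reduces oxidised glutathione, was at 8.5 ± 1.7 TPM in shISG20 cells and 12.4 ± 1.99 TPM in shNTC cells, with overlapping libraries (log2 difference -0.50, 95% interval -0.85 to -0.15, limma adjusted p = 0.0611). GSS, which completes glutathione, differed by 0.05 (95% interval -0.19 to 0.29).

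Among the 8 genes of the thioredoxin and peroxiredoxin systems, 4 fell and 1 rose. SRXN1, sulfiredoxin, which repairs over-oxidised peroxiredoxins, had a mean ratio of 0.275 between the subclones at 1% O2. Its 3 shISG20 libraries held 3.28, 4.34 and 3.91 TPM, and the shNTC libraries held 16.2, 15.8 and 9.87 TPM. Without overlap of these libraries, SRXN1 fell by 1.60 (SE 0.22, limma adjusted p = 0.00135). TXNRD1, cytosolic thioredoxin reductase, stood at 17.7, 17.1 and 15.8 TPM in shISG20 cells and 27.2, 28.4 and 24.6 TPM in shNTC cells. It fell by 0.63 (SE 0.09, limma adjusted p = 0.0017), and the libraries did not overlap.

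PRDX5, a peroxiredoxin of mitochondria, peroxisomes and cytosol, was at 312.5 ± 2.24 TPM in shISG20 cells and 413.1 ± 0.83 TPM in shNTC cells at 1% O2 (SD, n = 3 each; fell by 0.40, limma adjusted p = 0.00327). PRDX1, an abundant cytosolic peroxiredoxin, fell by 0.29 (limma adjusted p = 0.0297), a call lost in 6 of 15 alternatives, among them median-of-ratios size factors (-0.21) and each of 5 fits without a single library, from -0.31 to -0.24. PRDX6, the peroxiredoxin that uses glutathione, moved the other way and rose by 0.40 (limma adjusted p = 0.00278), with 176.4, 204.7 and 194.5 TPM in shISG20 cells and 139.4, 153.0 and 143.2 TPM in shNTC cells. TXN, PRDX2 and PRDX3 were not called, with log2 differences between -0.11 and 0.09, though PRDX2 was with median-of-ratios size factors (0.17).

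HMOX1, haem oxygenase 1, which opens haem into biliverdin, iron and carbon monoxide, had 35.3, 34.2 and 31.0 TPM in shISG20 cells and 73.1, 70.8 and 63.7 TPM in shNTC cells at 1% O2. It fell by 1.03 (SE 0.09, limma adjusted p = 0.000115), while the other 4 genes of haem, iron and quinone handling were not called. BLVRB, a biliverdin reductase, differed by -0.13 and NQO1, the quinone reductase often used as an NRF2 readout, by -0.26 with a 95% interval of -0.73 to 0.21. FTH1 and FTL, the ferritin chains that store iron, differed by -0.14 (limma adjusted p = 0.0576) and by 0.12 (limma adjusted p = 0.0522). FTL passed the threshold with median-of-ratios size factors (0.20) and FTH1 with the reads of its pseudogene rows added (-0.15).

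CAT, catalase, stood at 42.0, 56.0 and 41.4 TPM in shISG20 cells and 72.5, 74.0 and 71.2 TPM in shNTC cells at 1% O2 and fell by 0.65 (SE 0.12, limma adjusted p = 0.0056). SOD1, the cytosolic superoxide dismutase, differed by 0.13 and was not called. GPX4, the peroxidase that reduces lipid peroxides, rose by 0.33 (limma adjusted p = 0.00961), with 249.1, 273.5 and 229.0 TPM in shISG20 cells and 189.3, 199.5 and 205.4 TPM in shNTC cells. The call for GPX4 was lost when the 2 groups were fitted alone (limma adjusted p = 0.0537). GSTA1, a glutathione transferase, was higher in each shISG20 library without reaching the threshold (0.63, 95% interval 0.05 to 1.20, limma adjusted p = 0.147).

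At 1% O2 limma called 0 of the 4 genes of the pentose phosphate pathway and NADPH supply. At an unadjusted p under 0.05 there were also 0, while voom called TKT (0.15) and ME1 (0.29). PGD, an NADPH-forming enzyme of the pentose phosphate pathway, had a log2 difference of -0.18 with a 95% interval of -0.44 to 0.08. TKT (transketolase), TALDO1 (transaldolase) and ME1 (malic enzyme) had differences of 0.07, -0.07 and 0.20. ABCC1, which exports glutathione conjugates, and OSGIN1, an oxidative stress-induced growth inhibitor, were not called either (0.08 and -0.18).

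Of the 3 regulators, 1 fell. NFE2L2 stood at 5.43, 7.09 and 5.85 TPM in shISG20 cells and 7.66, 9.03 and 7.67 TPM in shNTC cells at 1% O2, lower in each library (log2 difference -0.36, 95% interval -0.64 to -0.08, limma adjusted p = 0.0888). KEAP1 stood at 9.62, 11.1 and 8.89 TPM in shISG20 cells and 16.1, 18.8 and 12.0 TPM in shNTC cells and fell by 0.60 (limma adjusted p = 0.0288). The KEAP1 call was lost in 5 of 15 alternatives, among them without shISG20 replicate 1 (-0.59) or 3 (-0.53) and without shNTC replicate 1 (-0.57) or 2 (-0.46). MAFG was not called (-0.20). The libraries did not overlap for any of the 13 calls at 1% O2, nor for 99.4% of the calls over all rows, and 31.2% of all rows had no overlap. Of the 13 calls, 9 held in every alternative: CAT, GCLM, GGT7, HMOX1, PRDX5, PRDX6, SLC7A11, SRXN1 and TXNRD1.

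**Figure D1:**
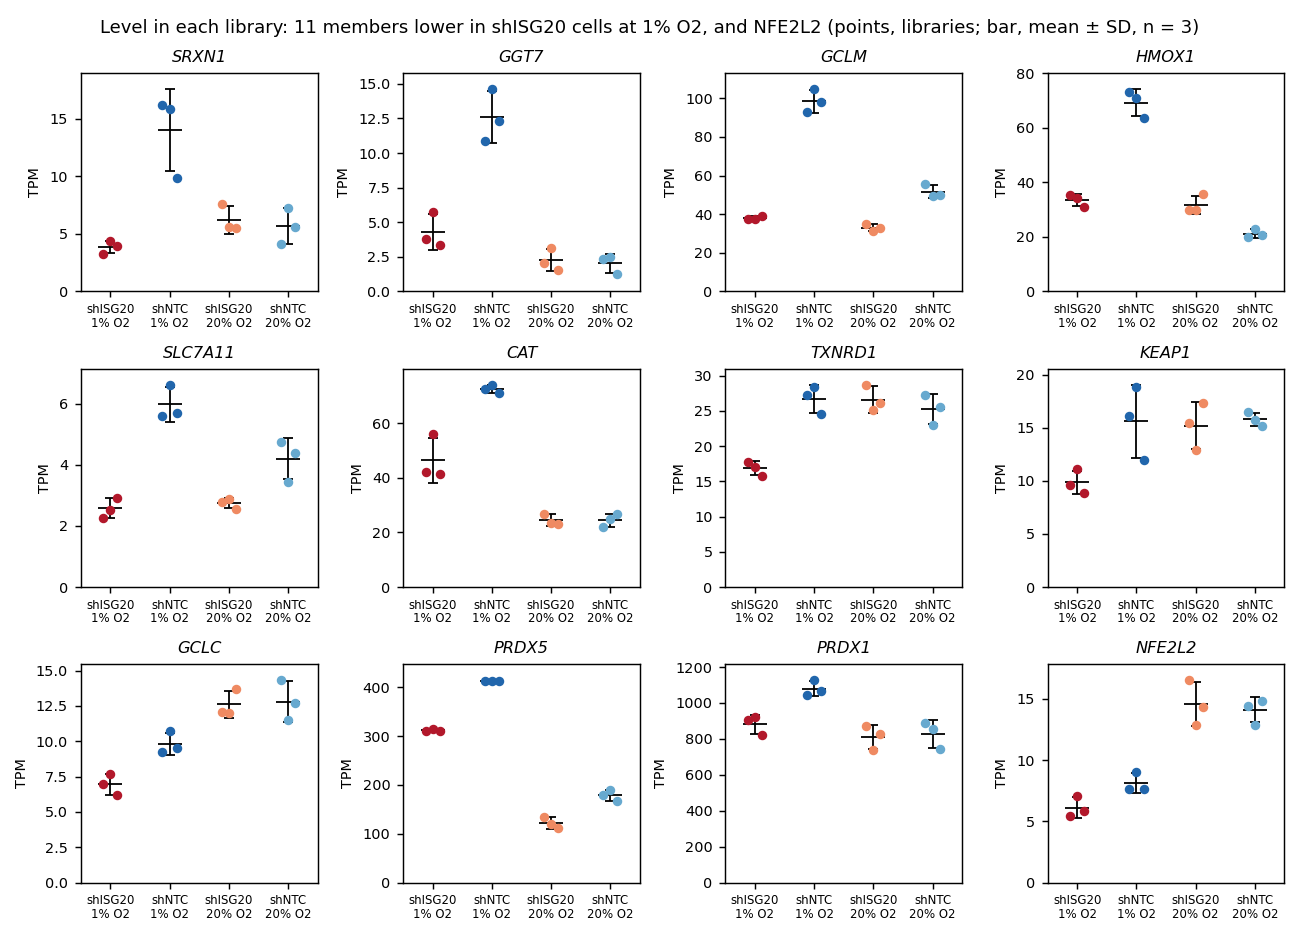
TPM in each library for the 11 members that were lower in shISG20 than in shNTC cells at 1% O2, and for NFE2L2, with the 4 groups on the x axis of each panel, points for libraries and bars for the mean ± SD (n = 3). For GCLM the shISG20 libraries at 1% O2 sit between 37.3 and 38.9 TPM and the shNTC libraries between 92.8 and 104.6 TPM, and for SRXN1, HMOX1 and CAT the shNTC libraries at 1% O2 stand above the libraries of all other groups.

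At 20% O2 GSTA1, GPX4, PRDX6, HMOX1 and FTL rose in shISG20 cells, and GCLM, PRDX2, PRDX5, SOD1, TKT and ABCC1 fell. Of the 34 tested members, 5 rose and 6 fell in shISG20 cells, where 5.05% of all rows were called higher and 6.55% lower, 11.6% in all. The median difference was 0.01 over the members and 0.02 over all rows. All 11 calls were without overlap of the libraries, as were 99.8% of the calls over all rows, and 31.2% of all rows had no overlap. Without the library labelled 484 hours 5 members rose and 5 fell. TXN, not called (0.42), was called with the reads of its pseudogene rows added (0.38, limma adjusted p = 0.02).

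Of the members that had fallen at 1% O2, GCLM and PRDX5 fell at 20% O2 as well. GCLM was at 33.0 ± 1.79 TPM in shISG20 cells and 51.6 ± 3.39 TPM in shNTC cells (SD, n = 3 each), and fell by 0.63 (SE 0.07, limma adjusted p = 0.000298). PRDX5 was at 122.1 ± 11.7 TPM in shISG20 cells and 178.4 ± 11.7 TPM in shNTC cells (SD, n = 3 each; fell by 0.54, limma adjusted p = 0.000531). SLC7A11 was lower in each shISG20 library, at 2.8, 2.87 and 2.56 TPM in shISG20 cells and 4.74, 3.44 and 4.4 TPM in shNTC cells, without reaching the threshold (-0.47, limma adjusted p = 0.0605). SRXN1, GGT7, TXNRD1, CAT, KEAP1, GCLC, PRDX1 and NFE2L2 had overlapping libraries and differences between -0.06 and 0.13.

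HMOX1 had the opposite direction: it rose by 0.56 in shISG20 cells at 20% O2 (SE 0.09, limma adjusted p = 0.00357). Its libraries held 29.9 to 35.6 TPM in shISG20 cells and 19.9 to 23.0 TPM in shNTC cells. FTL rose by 0.45 (SE 0.04, limma adjusted p = 5.5e-05), with 7469.2, 7290.8 and 7411.5 TPM in shISG20 cells and 5298.6, 5336.6 and 5631.0 TPM in shNTC cells. Neither gene had overlapping libraries.

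GSTA1 had 8.55, 10.8 and 9.79 TPM in shISG20 cells and 2.75, 3.22 and 1.18 TPM in shNTC cells at 20% O2, a mean ratio of 4.07 (log2 difference 1.71, SE 0.26, limma adjusted p = 0.00203). The GSTA1 row can take reads from several near-identical mouse transferase genes, so which copy was read is uncertain. PRDX6 and GPX4 rose by 0.38 and 0.36 (limma adjusted p = 0.0037 and 0.0075), in the direction they had at 1% O2. Both genes had higher values in every shISG20 library than in any shNTC library.

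The members that fell at 20% O2 without a call at 1% O2 were PRDX2, SOD1, TKT and ABCC1. PRDX2, a cytosolic peroxiredoxin, was at 189.7 ± 6.58 TPM in shISG20 cells and 236.7 ± 3.64 TPM in shNTC cells (SD, n = 3 each; fell by 0.32, limma adjusted p = 0.00478). TKT was at 71.3 ± 2.86 TPM in shISG20 cells and 96.8 ± 1.53 TPM in shNTC cells (fell by 0.44, limma adjusted p = 0.00142). SOD1 fell by 0.39 (limma adjusted p = 0.0102), a call lost when the 2 groups were fitted alone (limma adjusted p = 0.0519). ABCC1 fell by 0.49 (limma adjusted p = 0.0339), with 12.3, 10.7 and 9.99 TPM in shISG20 cells and 15.6, 18.1 and 13.9 TPM in shNTC cells. That call was lost in 5 of 15 alternatives, among them without shISG20 replicate 2 (-0.47) or 3 (-0.43) and without shNTC replicate 1 (-0.50) or 2 (-0.39).

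**Figure D2:**
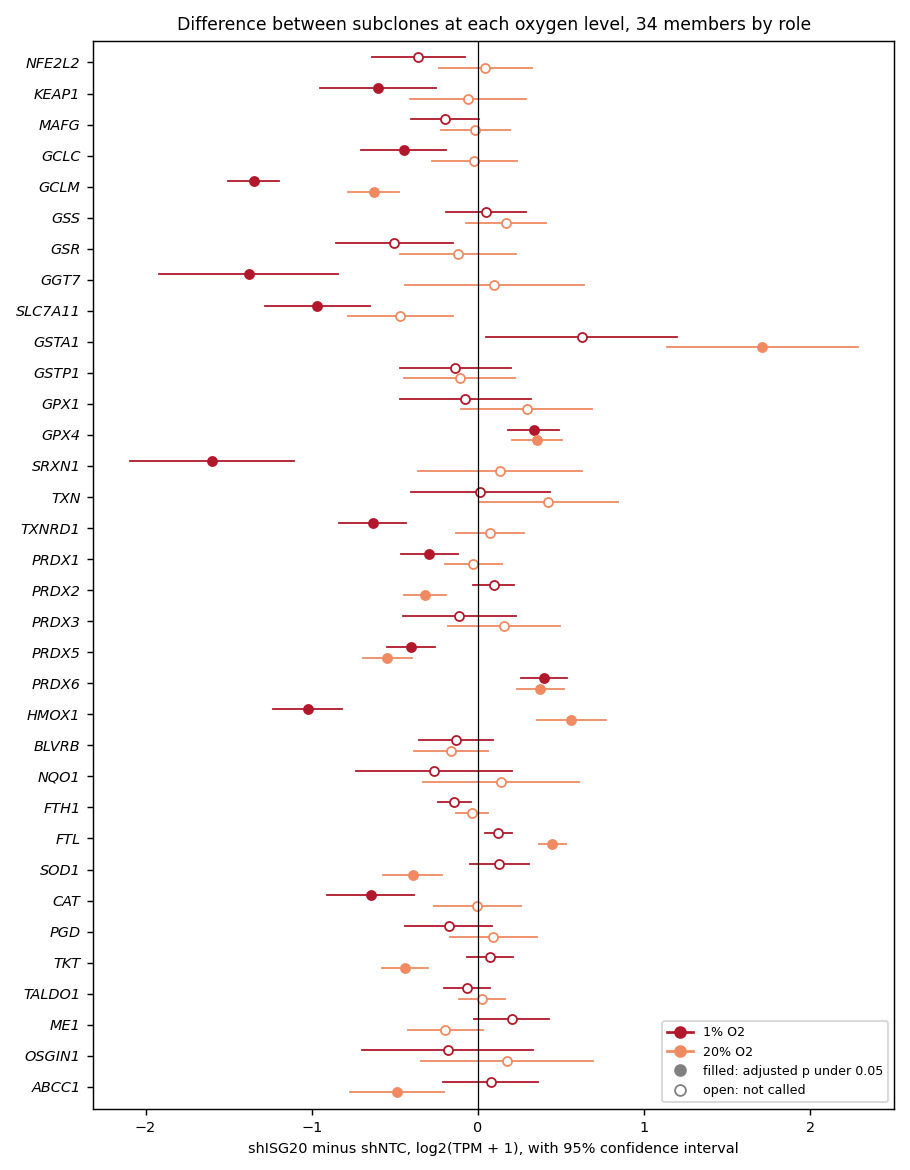
Difference between shISG20 and shNTC cells for the 34 tested members, on the x axis as log2(TPM + 1) with its 95% confidence interval, with members down the page by role, dark points for 1% O2, light points for 20% O2, and filled points where the limma adjusted p is under 0.05. HMOX1 lies at -1.03 at 1% O2 and at 0.56 at 20% O2, GCLM is below 0 at both oxygen levels, and PRDX6 and GPX4 are above 0 at both.

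The difference between the oxygen levels was tested itself, as the knockdown effect at 1% O2 minus that at 20% O2. It was below 0 for 7 members and above 0 for 3, with 4.31% of all rows called below 0 and 2.62% above it, 6.93% in all. Over all rows the calls were split 377 above to 620 below 0, and 595 to 456 with median-of-ratios size factors, where 3 members were above and 5 below 0. Without the library labelled 484 hours 2 members were above and 6 below 0. HMOX1 had a difference of -1.59 (SE 0.13, limma adjusted p = 0.000425) and SRXN1 of -1.74 (SE 0.32, limma adjusted p = 0.0104). GCLM (-0.72), TXNRD1 (-0.71), TKT (0.51) and PRDX2 (0.41) were called as well, and these 6 held in all 20 alternatives.

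The remaining 4 calls were less firm. FTL had -0.32 (limma adjusted p = 0.00627) and missed the threshold with median-of-ratios size factors (-0.24, limma adjusted p = 0.0713). SOD1 (0.52) was lost in 5 of the 20 alternatives, each the loss of a single library, with values of 0.47 to 0.51. GGT7 (-1.48) was lost in 8, of which 7 were the loss of a single library (-1.50 to -1.28). CAT (-0.64, limma adjusted p = 0.046) was lost in 14, among them the loss of any library but shISG20 replicate 2 at 1% O2 (-0.70 to -0.57).

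The same test compares the response to 1% O2 in the subclones. In shNTC cells HMOX1 was at 69.2 ± 4.89 TPM at 1% O2 and 21.2 ± 1.59 TPM at 20% O2, while in shISG20 cells it was at 33.5 ± 2.23 TPM at 1% O2 and 31.8 ± 3.28 TPM at 20% O2 (SD, n = 3 each). The log2 hypoxia effect on HMOX1 was 0.08 in shISG20 cells (limma adjusted p = 0.524) and 1.66 in shNTC cells (limma adjusted p = 1.16e-07). That absence of a call in shISG20 cells holds on the TPM scale. With median-of-ratios size factors HMOX1 was called higher at 1% O2 there too, as were all 5 genes of haem, iron and quinone handling. SRXN1 had a hypoxia effect of -0.57 in shISG20 cells (limma adjusted p = 0.0482, lost in 11 of 15 alternatives and at -0.22 with median-of-ratios size factors) and of 1.17 in shNTC cells (limma adjusted p = 0.00116). That loss for SRXN1 in shISG20 cells came with the removal of any single library (-0.64 to -0.44).

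Hypoxia changed most members in both subclones, on a scale that moved for the table as a whole. In shISG20 cells 13 members rose and 10 fell, where 14.0% of all rows were called higher and 42.8% lower, 56.8% in all. In shNTC cells 19 members rose and 7 fell, where 12.8% of all rows were called higher and 38.1% lower, 50.9% in all. Without the library labelled 484 hours 11 members rose and 8 fell in shISG20 cells. The median over all rows was -0.35 in shISG20 cells and -0.28 in shNTC cells, and the median over the members was 0.10 in shISG20 cells and 0.24 in shNTC cells. The 2 hypoxia comparisons share no library. The libraries did not overlap for 23 of the 34 members in shISG20 cells, where 62.2% of all rows had no overlap, and for 27 members in shNTC cells, where 58.5% of all rows had none.

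Median-of-ratios size factors, which set the median row to 0, shifted the values up by 0.35 in shISG20 cells and by 0.28 in shNTC cells. Under them 21 members rose and 6 fell in shISG20 cells, and 24 rose and 4 fell in shNTC cells. The calls over all rows were then split 3782 higher to 3822 lower in shISG20 cells, against 2021 to 6152 on the TPM scale. In shNTC cells they were split 3313 to 3209, against 1847 to 5479. Log2 effects below are on the TPM scale. With median-of-ratios size factors the direction turned in shISG20 cells for GSR (-0.22 on the TPM scale and 0.16 with the size factors), SLC7A11 (-0.07 and 0.24), TXN (-0.29 and 0.12), GPX4, PRDX2, PRDX6 and FTL. In shNTC cells it turned for KEAP1 (-0.04 on the TPM scale and 0.29 with the size factors), ME1 (-0.15 and 0.18), GPX4 and PRDX6. Apart from FTL, none of these was called on the TPM scale in that subclone.

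**Figure D3:**
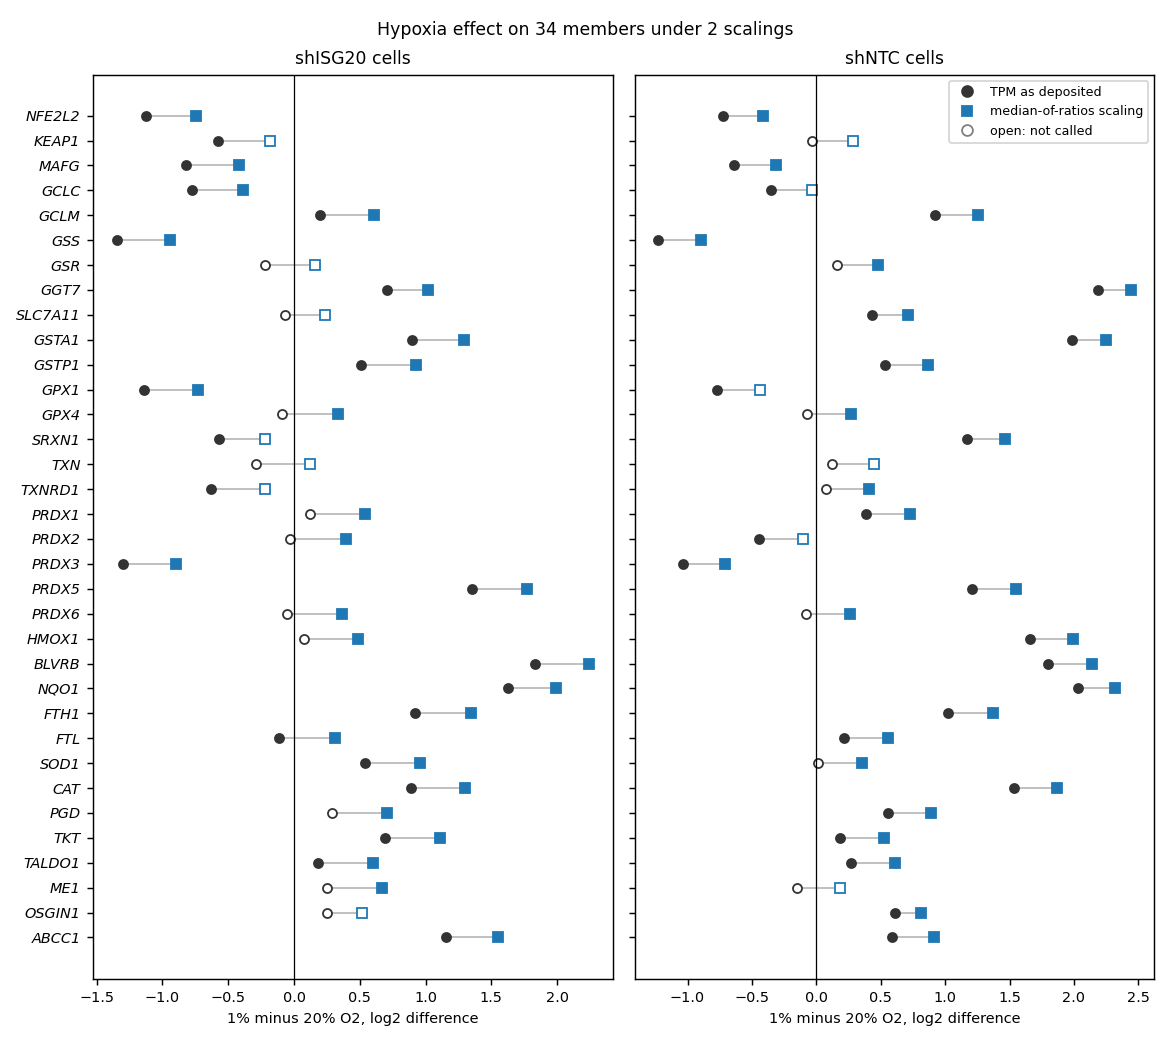
Log2 difference between 1% and 20% O2 for the 34 tested members in shISG20 cells (left panel) and shNTC cells (right panel), with circles for TPM as deposited, squares for median-of-ratios size factors and open symbols for members that were not called. The squares lie to the right of the circles throughout, and for GPX4 and PRDX6 they lie above 0 where the circles lie below it in both panels.

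Members that rose at 1% O2 in both subclones numbered 12, which is 92.3% of those in shISG20 cells and 63.2% of those in shNTC cells. Over all rows the calls higher in both were 71.0% of those in shISG20 cells and 77.7% of those in shNTC cells. Those with the highest effects in shISG20 cells were BLVRB (1.83 in shISG20 and 1.80 in shNTC cells), NQO1 (1.63 in shISG20 and 2.03 in shNTC cells), PRDX5 (1.35 in shISG20 and 1.21 in shNTC cells) and ABCC1 (1.15 in shISG20 and 0.59 in shNTC cells). NQO1 held 13.4, 16.2 and 14.0 TPM at 1% O2 and 4.15, 3.1 and 4.94 TPM at 20% O2 in shISG20 cells. In shNTC cells it held 16.0, 20.7 and 16.4 TPM at 1% O2 and 3.97, 2.28 and 4.76 TPM at 20% O2, again without overlap. BLVRB was at 96.5 ± 2.92 TPM at 1% O2 and 26.7 ± 4.34 TPM at 20% O2 in shISG20 cells, and at 106.2 ± 8.08 TPM at 1% O2 and 29.7 ± 1.15 TPM at 20% O2 in shNTC cells (SD, n = 3 each). For both genes the difference of the effects between the subclones was not called, at -0.40 for NQO1 (95% interval -1.07 to 0.26) and 0.03 for BLVRB (-0.29 to 0.34).

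FTH1, the ferritin heavy chain, rose by 0.92 in shISG20 cells and by 1.03 in shNTC cells (SE 0.04 each). Its pseudogene rows held 56.3% of the reads of the gene and its copies, and with them added the effect in shISG20 cells was again 0.92. FTL moved little and its direction rests on the scaling: -0.11 in shISG20 cells and 0.21 in shNTC cells on the TPM scale, 0.31 in shISG20 and 0.55 in shNTC cells with median-of-ratios size factors, and -0.59 in shISG20 and -0.16 in shNTC cells under quantile normalization. The FTL call in shISG20 cells was also lost without replicate 2 or 3 at 1% O2 or replicate 1 or 3 at 20% O2 (-0.11 to -0.10). CAT rose by 0.89 in shISG20 cells and by 1.53 in shNTC cells. GSTA1 rose by 0.90 in shISG20 cells, a call lost without replicate 1 at 1% O2 (0.68), and by 1.99 in shNTC cells, and GSTP1, another glutathione transferase, rose by 0.51 in shISG20 cells and by 0.53 in shNTC cells. The GSTP1 call in shISG20 cells was lost when the 2 groups were fitted alone (limma adjusted p = 0.0696).

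Within glutathione synthesis the members went different ways at 1% O2. GCLM rose by 0.92 in shNTC cells (limma adjusted p = 1.19e-06). In shISG20 cells its effect was 0.20 (limma adjusted p = 0.0315), a call lost in 6 of 15 alternatives, of which 5 were the loss of a single library (0.17 to 0.21). Over all 15 alternatives the GCLM effect in shISG20 cells ran from 0.17 to 0.63. GSS fell in both, by 1.35 in shISG20 cells and by 1.23 in shNTC cells, with 15.4, 15.7 and 16.4 TPM at 1% O2 and 40.3, 42.5 and 42.6 TPM at 20% O2 in shISG20 cells. GCLC fell by 0.77 in shISG20 cells, and in shNTC cells its value was -0.35 on the TPM scale and -0.04 with median-of-ratios size factors (limma adjusted p = 0.813). That call was also lost without shNTC replicate 1 (-0.31) or 3 (-0.33) at 1% O2 and replicate 1 (-0.28) or 3 (-0.36) at 20% O2.

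GGT7 rose by 2.18 in shNTC cells, with 10.9, 14.6 and 12.3 TPM at 1% O2 and 2.34, 2.51 and 1.26 TPM at 20% O2. In shISG20 cells it rose by 0.70, a call lost without replicate 2 at 1% O2 (0.52) and without replicate 1 (0.68) or 3 (0.55) at 20% O2. SLC7A11 rose by 0.43 in shNTC cells, a call lost without replicate 2 at 1% O2 (0.37) or replicate 2 at 20% O2 (0.32), and had -0.07 in shISG20 cells (limma adjusted p = 0.709). GSR was not called in either subclone on the TPM scale (-0.22 in shISG20 and 0.16 in shNTC cells). In shNTC cells GSR was called higher with median-of-ratios size factors. The difference between these SLC7A11 effects was -0.50 and was not called (95% interval -0.95 to -0.05, limma adjusted p = 0.169).

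NFE2L2, MAFG, PRDX3 and GPX1 fell at 1% O2 in both subclones. NFE2L2 was at 6.12 ± 0.86 TPM at 1% O2 and 14.6 ± 1.78 TPM at 20% O2 in shISG20 cells, and at 8.12 ± 0.786 TPM at 1% O2 and 14.1 ± 1.03 TPM at 20% O2 in shNTC cells (SD, n = 3 each). It fell by 1.13 in shISG20 cells and by 0.72 in shNTC cells, and with median-of-ratios size factors by 0.75 in shISG20 and 0.41 in shNTC cells. MAFG fell by 0.82 in shISG20 cells and by 0.64 in shNTC cells. PRDX3, the mitochondrial peroxiredoxin, fell by 1.30 in shISG20 cells and by 1.03 in shNTC cells. GPX1, a cytosolic and mitochondrial glutathione peroxidase, fell by 1.14 in shISG20 and 0.77 in shNTC cells. Its call in shNTC cells was lost with median-of-ratios size factors (-0.44). Pseudogene rows held 49.0% of the reads of GPX1 and its copies, and both GPX1 calls held with them added.

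KEAP1 and TXNRD1 fell in shISG20 cells (-0.58 and -0.63) and were not called in shNTC cells (-0.04 and 0.08). In shISG20 cells both calls were lost with median-of-ratios size factors (-0.18 and -0.22), and the subclones' effects on KEAP1 did not differ at the threshold (-0.54, limma adjusted p = 0.177). TXN, the electron carrier that TXNRD1 reduces, was not called in either subclone (-0.29 in shISG20 and 0.12 in shNTC cells). The TXN row shares its reads with pseudogene rows, which held 46.3% of them. PRDX6 and GPX4 were not called on the TPM scale in either subclone (-0.09 to -0.06) and were called higher with median-of-ratios size factors (0.26 to 0.37).

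SOD1 rose by 0.54 in shISG20 cells, with 174.3, 159.4 and 181.2 TPM at 1% O2 and 131.6, 106.8 and 116.1 TPM at 20% O2, and had 0.02 in shNTC cells. With median-of-ratios size factors SOD1 was called higher at 1% O2 in shNTC cells as well. PRDX2 fell by 0.44 in shNTC cells, with 170.3, 186.7 and 165.5 TPM at 1% O2 and 236.9, 233.0 and 240.3 TPM at 20% O2, a call lost with median-of-ratios size factors (-0.10). In shISG20 cells PRDX2 was at -0.03, and at 0.39 with those size factors. PRDX1 rose by 0.38 in shNTC cells and had 0.12 in shISG20 cells, where it was called with those size factors (0.54). OSGIN1 rose by 0.61 in shNTC cells, a call lost without replicate 1 (0.64) or 3 (0.44) at 1% O2 and replicate 2 (0.56) or 3 (0.55) at 20% O2.

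In the pentose phosphate pathway TKT rose by 0.69 in shISG20 cells, with 111.9, 119.0 and 116.9 TPM at 1% O2 and 70.3, 69.2 and 74.6 TPM at 20% O2. In shNTC cells it rose by 0.19, with 105.5, 121.2 and 104.7 TPM at 1% O2 and 98.1, 97.3 and 95.1 TPM at 20% O2, a call lost without replicate 2 at 1% O2 (0.12) or any library at 20% O2 (0.17 to 0.19). The levels of TKT at 1% O2 overlapped between the subclones, and those at 20% O2 did not. PGD rose by 0.56 in shNTC cells and had 0.29 in shISG20 cells (limma adjusted p = 0.0587), and TALDO1 rose by 0.27 in shNTC cells. TALDO1 rose by 0.18 in shISG20 cells, a call lost without replicate 1 (0.17) or 3 (0.16) at 1% O2 and replicate 2 (0.19) or 3 (0.13) at 20% O2. ME1 was not called in either (0.25 in shISG20 and -0.15 in shNTC cells). These calls depend on the scaling. With median-of-ratios size factors all 4 genes, PGD and ME1 among them, were called higher in shISG20 cells, and 3 of the 4 in shNTC cells.

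**Figure D4:**
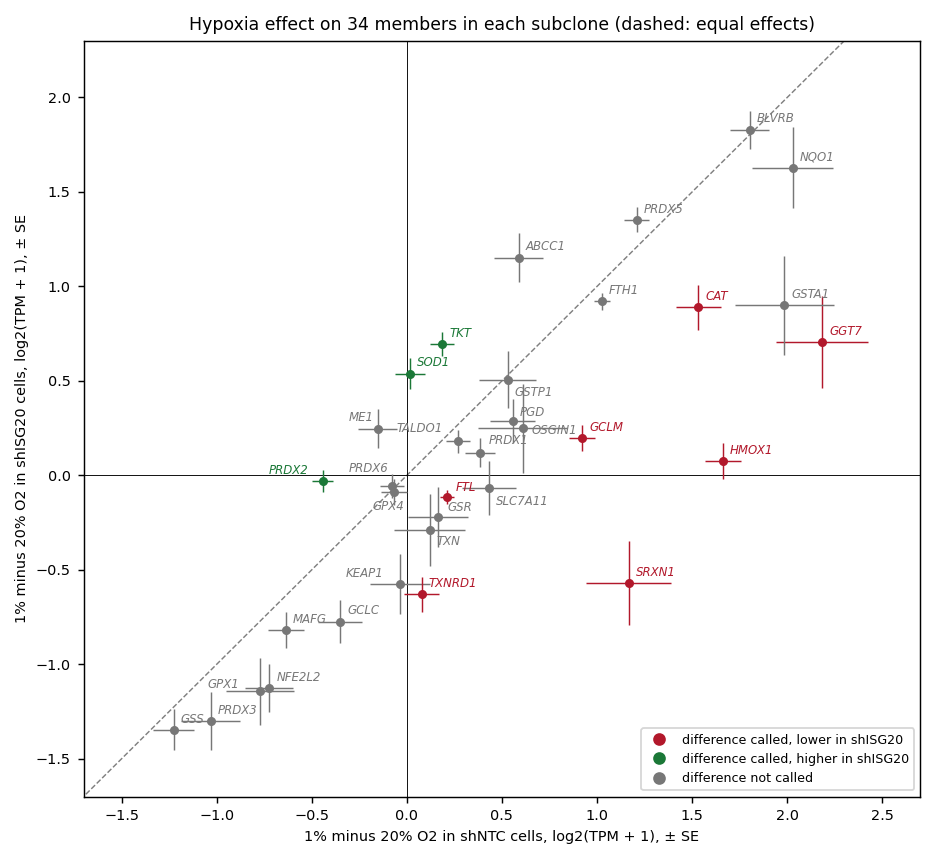
Log2 difference between 1% and 20% O2 in shISG20 cells (y axis) against that in shNTC cells (x axis) for the 34 tested members, both as log2(TPM + 1) ± SE, with a dashed line where the effects are equal. Red members had a lower hypoxia effect in shISG20 cells by the interaction test and green members a higher one: HMOX1 lies at 0.08 in shISG20 and 1.66 in shNTC cells, SRXN1 at -0.57 in shISG20 and 1.17 in shNTC cells, and TKT at 0.69 in shISG20 and 0.19 in shNTC cells, while BLVRB lies close to the line (1.83 in shISG20 and 1.80 in shNTC cells).

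Summed levels of cell type markers moved with oxygen as well. The epithelial and carcinoma markers summed to 235.5 to 243.0 TPM in shISG20 and 200.9 to 219.3 TPM in shNTC cells at 1% O2, and to 48.7 to 58.4 TPM in shISG20 and 43.0 to 55.1 TPM in shNTC cells at 20% O2. The mesenchymal markers, nearly all VIM, summed to 7985.2 to 8115.0 TPM in shISG20 and 6815.5 to 6904.5 TPM in shNTC cells at 1% O2, and to 1762.0 to 1969.8 TPM in shISG20 and 1989.3 to 2053.3 TPM in shNTC cells at 20% O2. SNAI2 and ZEB1 fell at 1% O2, SNAI2 by 1.91 in shISG20 and 2.04 in shNTC cells and ZEB1 by 1.39 in shISG20 and 1.61 in shNTC cells. The fibroblast markers summed to 1.58 to 2.76 TPM in shISG20 and 1.96 to 3.9 TPM in shNTC cells at 1% O2. At 20% O2 they summed to 5.35 to 7.63 TPM in shISG20 and 7.73 to 8.27 TPM in shNTC cells. LUM was at 0, and the 2 tested fibroblast markers went opposite ways in both subclones. PDGFRB fell, from a mean of 6.25 to 0.802 TPM in shISG20 and from 7.6 to 1.11 TPM in shNTC cells. PDGFRA rose, from a mean of 0.483 to 1.36 TPM in shISG20 and from 0.469 to 1.8 TPM in shNTC cells. CSF1R, the leucocyte marker that was detected, averaged 1.84 TPM in shISG20 and 2.56 TPM in shNTC cells at 1% O2, and 0.0499 TPM in shISG20 and 0.0449 TPM in shNTC cells at 20% O2. The part of these shifts in the hypoxia results was not tested, and in RNA from whole cultures fewer cells of a kind and less RNA per cell cannot be told apart.

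**Figure D5:**
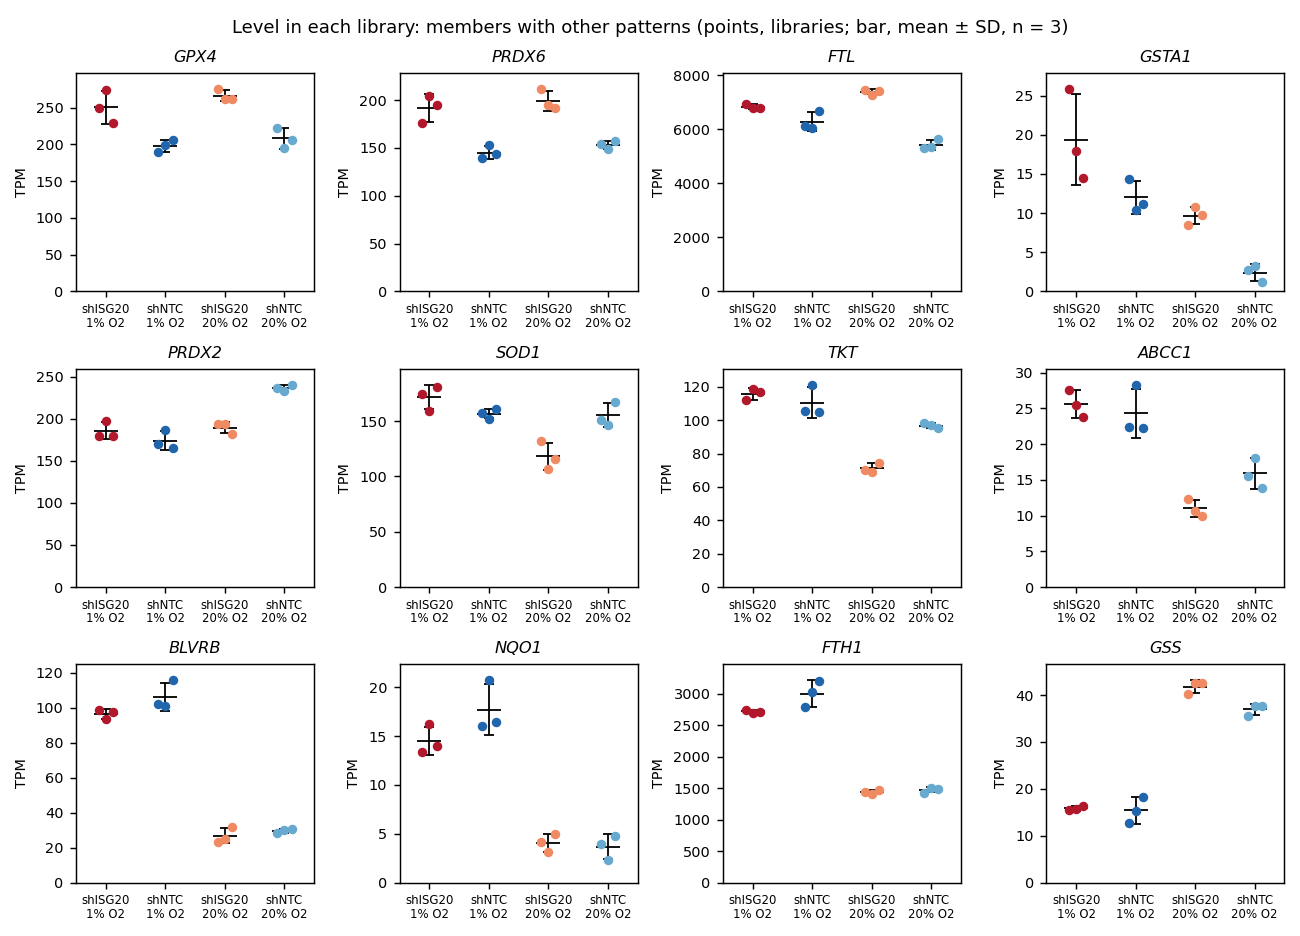
TPM in each library for 12 members with other patterns, with the 4 groups on the x axis of each panel, points for libraries and bars for the mean ± SD (n = 3). PRDX6 and GPX4 are higher in shISG20 cells at both oxygen levels, BLVRB, NQO1 and FTH1 are higher at 1% O2 in both subclones, GSS is lower there, and TKT is lowest in shISG20 cells at 20% O2 (69.2 to 74.6 TPM).

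The other genes of these pathways were read from a list of 73, of which 51 were tested. In shISG20 cells at 1% O2, 6 of the 51 fell (11.8%, against 9.66% of all rows) and 1 rose (1.96%, against 4.25%). At 20% O2, 5 fell (9.8%, against 6.55%) and 3 rose (5.88%, against 5.05%), so the shares at both oxygen levels lay near those of the whole table. IDH2, which makes NADPH in mitochondria, fell at both oxygen levels, by 0.85 at 1% O2 (113.0 TPM in shISG20 and 204.2 TPM in shNTC cells, limma adjusted p = 0.000115) and by 1.10 at 20% O2 (88.6 TPM in shISG20 and 191.7 TPM in shNTC cells, limma adjusted p = 2.03e-05). NFE2L1, a relative of NRF2, fell by 0.35 at 1% O2 and by 0.50 at 20% O2. SQSTM1 (p62), which binds KEAP1, fell at 1% O2, with 106.2 TPM in shISG20 and 165.0 TPM in shNTC cells (by 0.63, limma adjusted p = 7.82e-05). MAFK, another small MAF partner, fell by 0.58, SLC3A2, the heavy chain that carries SLC7A11 to the membrane, by 0.33, and CCS, the copper chaperone of SOD1, by 0.46. The CCS call was lost without shISG20 replicate 1 (-0.46) or 3 (-0.44), and those of MAFK, SLC3A2 and CCS when the 2 groups were fitted alone.

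At 20% O2 AKR1B1, an aldose reductase, rose by 0.72 (62.9 TPM in shISG20 and 37.9 TPM in shNTC cells, limma adjusted p = 0.00196). CHAC1, which degrades glutathione, fell by 0.38 and IDH1, a cytosolic source of NADPH, by 0.67, the last a call lost in 6 of 15 alternatives, including without any library at 20% O2 but shISG20 replicate 1 (-0.68 to -0.56). ABCC5, a conjugate exporter, rose by 0.47, a call lost in 9 of 15 alternatives, including without any library at 20% O2 (0.43 to 0.49). The oxygen levels differed in the knockdown effect on SQSTM1 (-0.60), MAFK (-0.65), AKR1B1 (-0.66) and GSTM1, a glutathione transferase (0.87). Leaving out a single library ended the calls for MAFK (6 libraries, -0.65 to -0.61), AKR1B1 (9 libraries, -0.69 to -0.58) and GSTM1 (10 libraries, 0.76 to 0.92).

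Under hypoxia 15 of the 51 rose (29.4%, against 14.0% of all rows) and 23 fell (45.1%, against 42.8%) in shISG20 cells. In shNTC cells 9 rose (17.6%, against 12.8%) and 21 fell (41.2%, against 38.1%). With median-of-ratios size factors these counts were 18 and 17 in shISG20 cells and 16 and 17 in shNTC cells. CHAC1 fell by 1.70 in shISG20 cells and by 1.90 in shNTC cells, TXN2, mitochondrial thioredoxin, by 2.01 in shISG20 and 1.57 in shNTC cells, and RPIA, ribose phosphate isomerase, by 1.29 in shISG20 and 1.38 in shNTC cells. UGDH, which makes the sugar used for glucuronidation, rose by 1.70 in shISG20 cells and by 1.56 in shNTC cells. GSTM4, a glutathione transferase, rose by 1.61 in shISG20 cells and by 1.65 in shNTC cells, and GLRX3, a glutaredoxin, fell by 1.12 in shISG20 cells and by 1.17 in shNTC cells.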

How the data were processed

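RNA was sequenced from 12 libraries of EMT6 cells in 4 groups of 3, by subclone and oxygen level. The authors deposited transcripts-per-million (TPM) values. Per the submitters' processing notes, the tools included FastQC, STAR and featureCounts with GRCh38. How counts became TPM, and the tools' versions, are not given in the sources used here. Whole reads behind the TPM were recovered from the steps between libraries, up to a common divisor of each row. All values were whole within 1e-05, with a largest deviation of 2.7e-10.

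A row was tested if 3 or more libraries reached 1 TPM (14389 of 60683). limma 3.58.1 in R 4.3.3 was run on log2(TPM + 1), with a variance trend, all libraries in a single fit of 4 group means and no covariate. Adjusted p-values are Benjamini-Hochberg values over all tested rows, with a threshold of 0.05, called here as rising or falling. Fold changes on this scale understate the change of low genes. The fit was checked on simulated data in which a small set of rows changed, equally up and down. That check does not cover the shift of the whole table between the oxygen levels. The rest used pandas 2.3.3, numpy 2.4.6 and matplotlib 3.10.9 under Python 3.11.15.

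The members and lists were chosen with earlier results of these data known. The text names ISG20, all members and, per comparison, up to 6 called genes of the wider pathway list with the smallest p. Alternatives were a pseudocount of 0.1, no filter, median-of-ratios size factors, quantile normalization, voom on the recovered reads, only the groups compared, only rows named as a mouse gene, pseudogene rows added, a replicate block, and leaving out each library. Promoter windows came from RefSeq (GRCm38.p6), matched by symbol or synonym. Counting error is not shown for TPM levels, and no interval covers more than the spread between libraries.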

Additional observations from a re-analysis of the deposited data

Results flagged for a closer look

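The difference between the subclones was itself different at 1% O2 and at 20% O2 for 15 of the genes named here, by the limma interaction test over all tested rows. The values are the effect of shISG20 against shNTC at 1% O2 minus that at 20% O2, on the log2 scale. Below 0 were HMOX1 (-1.59), SRXN1 (-1.74), GGT7 (-1.48), GCLM (-0.72), TXNRD1 (-0.71), CAT (-0.64) and FTL (-0.32) among the members, and AKR1B1 (-0.66), MAFK (-0.65) and SQSTM1 (-0.60) among the other genes of the pathway. Above 0 were SOD1 (0.52), TKT (0.51) and PRDX2 (0.41) among the members, and GSTM1 (0.87) among the others. ISG20 had -1.07: the difference between shISG20 and shNTC cells was -2.57 at 1% O2 and -1.50 at 20% O2.

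The smallest adjusted p was that of HMOX1 (0.000425), whose direction between the subclones changed with oxygen. Of these calls, 8 were lost in some alternatives: CAT in 14 of 20, GSTM1 in 11, GGT7 in 8, MAFK in 7, SOD1 in 5 and ISG20 in 4 of 20, AKR1B1 in 10 of 19 and FTL in 1 of 19. Leaving out a single library ended the call for CAT (11 libraries, -0.70 to -0.57), GSTM1 (10, 0.76 to 0.92), AKR1B1 (9, -0.69 to -0.58), GGT7 (7, -1.50 to -1.28), MAFK (6, -0.65 to -0.61) and SOD1 (5, 0.47 to 0.51). The call for ISG20 was lost with a pseudocount of 0.1 (-0.66, limma adjusted p = 0.422), by voom (-0.41, limma adjusted p = 0.73), and without shNTC replicate 1 (-1.03) or 2 (-1.06) at 1% O2. The ISG20 means were 0.566 TPM in shISG20 and 8.28 TPM in shNTC cells at 1% O2, a ratio of 0.0684, and 0.225 TPM in shISG20 and 2.46 TPM in shNTC cells at 20% O2, a ratio of 0.0913.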

How the results depend on the processing

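The replicate numbers of the labels did not pair the libraries: over 12 pairs the correlation of deviations from the group means ran from -0.042 to 0.015, and 3 of 24 comparisons of a library were closest to its own number. With the replicate number as a block, 1748 rows were called between the subclones at 1% O2, 1438 at 20% O2, 8087 for hypoxia in shISG20 cells, 7129 in shNTC cells and 726 for the interaction.

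With median-of-ratios size factors, members called higher numbered 4 for the knockdown at 1% O2 and 21 for hypoxia in shISG20 cells, and members called lower numbered 6 for hypoxia in shISG20 and 4 in shNTC cells. By voom, members called higher numbered 7 for the knockdown at 1% O2, 22 for hypoxia in shISG20 cells and 5 for the interaction, members called lower numbered 6 for hypoxia in shISG20 cells, and 1789 rows were called for the interaction. The other comparisons had 2801 (1% O2), 2452 (20% O2), 7951 (hypoxia, shISG20) and 7093 (hypoxia, shNTC) rows called by voom. With only the groups compared, 957 rows and 1 higher member were called at 1% O2. With only rows named as a mouse gene, 5 members were above 0 in the interaction.

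Directions turned under hypoxia, given here for members that were called under the scale named or on the TPM scale. In shISG20 cells they turned for GPX4 (0.33), PRDX2 (0.39), PRDX6 (0.37) and FTL (0.31) with median-of-ratios size factors, and by voom (0.34, 0.39, 0.37 and 0.31). In shNTC cells they turned for GPX4 (0.27) and PRDX6 (0.26) with median-of-ratios size factors and by voom (0.27 and 0.26), and for FTL (-0.16) under quantile normalization.

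Leaving out a single library gave 1155 to 1889 called rows at 1% O2 (1155 without shNTC replicate 2, 1319 without shISG20 replicate 3), 1087 to 1160 at 20% O2 (1087 without shISG20 replicate 2), 7590 to 7779 for hypoxia in shISG20 cells, 6617 to 6730 in shNTC cells and 595 to 1043 for the interaction. The interaction had 595 without shISG20 replicate 2 and 632 without replicate 3 at 20% O2, 635 without shNTC replicate 2 at 1% O2 and 655 without shNTC replicate 1 at 20% O2. Called members ranged from 2 to 3 higher and 8 to 13 lower at 1% O2, 5 higher and 5 to 7 lower at 20% O2, and 2 to 3 above and 5 to 7 below 0 for the interaction. For hypoxia they ranged from 10 to 13 higher and 8 to 9 lower in shISG20 cells, and 16 to 18 higher and 6 to 7 lower in shNTC cells. The cause of these changes was not tested. The tested members with the fewest reads were OSGIN1 (200 in all libraries), GSTA1 (274) and GGT7 (330), and the errors of GSTA1 and GGT7 are wide.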
